A study of Rattus norvegicus with 4 samples.

Results

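The genes described here encode the short-chain, network-forming collagens VIII and X and the fibril-associated collagens XII, XIV and XVI. They were taken by symbol as Col8a1, Col8a2, Col10a1, Col12a1, Col14a1 and Col16a1, and all 6 were found, once each, among the 22050 genes listed for every library. Lung messenger RNA was sequenced from SD rats (Sprague-Dawley, an outbred laboratory stock) killed on day 28 after 1 injection of 0.2 mL into the trachea. The treated group of 2 rats received bleomycin, a DNA-breaking antitumour drug and a common inducer of experimental lung fibrosis, at 5 mg/kg. The control group of 2 rats received normal saline in the same volume. The animals' age and genotype are not stated in the labels, and each library came from the lung tissue of 1 rat. Values given in pairs are in the order of replicates 1 and 2.

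Collagens are trimers wound into a triple helix, and the families differ in what the helices build. Collagens VIII and X have a short helix and a globular C-terminal domain of the C1q type, by which trimers join into open lattices. Collagen VIII is laid down around blood vessels and beneath the endothelium of the cornea, and collagen X is the product of hypertrophic cartilage. Collagens XII, XIV and XVI do not form fibrils alone. Their interrupted helices lie along the surface of fibrils made by other collagens, chiefly collagen I for XII and XIV, and project large globular domains that bridge neighbouring fibrils and bind proteoglycans. Lung scarring is best known for fibrillar collagens I and III, and the comparison asked how far these less abundant collagens differed between bleomycin-treated and saline-treated lungs.

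Col8a2 and Col16a1 rose in bleomycin-treated lungs, each by nearly the same factor. Col8a2 was 2.96-fold higher and Col16a1 2.88-fold higher. Col8a1, Col12a1 and Col14a1 were measured higher in both treated libraries than in either control but did not pass the test, and Col10a1 was close to the detection limit in every library. For Col14a1, bleomycin replicate 2 was close to the controls, at 1.08-fold of their mean CPM, against 2.65-fold in replicate 1. Per unit of transcript length, Col12a1 was the most abundant of the 6 genes in both controls and Col16a1 in both treated lungs.

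The promoters of the genes that rose and of the one near the detection limit are shown because they differ plainly in base composition. Each is the 250 bases before the gene's start in RefSeq, on the plus strand of rat build GRCr8, and capitals mark matches to the motifs named after them. This build differs from that of the counts, and no count was made on it. Gene overlaps named below come from RefSeq as well, while the counts carry Ensembl gene identifiers.
Col8a2 promoter, chr5:143870519-143870768: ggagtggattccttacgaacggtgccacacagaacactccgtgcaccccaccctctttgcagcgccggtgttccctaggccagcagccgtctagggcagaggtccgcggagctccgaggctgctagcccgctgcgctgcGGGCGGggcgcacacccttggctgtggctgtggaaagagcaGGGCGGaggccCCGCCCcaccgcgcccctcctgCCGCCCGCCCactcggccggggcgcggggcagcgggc
Col16a1 promoter, chr5:147672846-147673095: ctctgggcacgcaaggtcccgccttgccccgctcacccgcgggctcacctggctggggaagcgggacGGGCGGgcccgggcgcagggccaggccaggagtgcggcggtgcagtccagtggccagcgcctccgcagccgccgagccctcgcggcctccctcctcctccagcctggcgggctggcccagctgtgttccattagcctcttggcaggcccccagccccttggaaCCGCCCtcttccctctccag
Col10a1 promoter, chr20:39737286-39737535: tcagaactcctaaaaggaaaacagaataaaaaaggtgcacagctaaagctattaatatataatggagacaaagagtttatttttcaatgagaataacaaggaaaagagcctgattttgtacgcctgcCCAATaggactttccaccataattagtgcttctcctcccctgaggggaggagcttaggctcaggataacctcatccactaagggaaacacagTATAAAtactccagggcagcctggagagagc

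Promoters of 4 of the 6 genes were in the RefSeq table, which lacked Col12a1 and Col14a1. The G and C content of the window was 73.2% for Col8a2, 74.8% for Col16a1, 62.0% for Col8a1 and 41.6% for Col10a1, against a median of 51.2% over 33469 rat promoters. Searched on both strands, the GC box GGGCGG had 5 matches before Col8a2, of which the last 2 overlap, 2 matches before Col16a1, 4 before Col8a1 and 0 before Col10a1. This motif was present in 30.5% of all promoter windows. Of the windows searched for these 4 genes, that of Col10a1 alone held the TATA box TATAAA, beginning 31 bases before the start, and the CCAAT box CCAAT, beginning 123 bases before it. Over all windows these occurred in 12.9% and 34% respectively. A match to TGTGGT, the RUNX site, was found before Col8a1 only of the 4, and in 14.5% of all windows. Neither the AP-1 site TGANTCA (6.34% of all windows) nor the SMAD palindrome GTCTAGAC (0.173%) occurred in the 4 windows. The motifs did not otherwise overlap one another, and a match describes letters and is not a binding site.

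Library totals ranged from 34683699 to 44381111 counts over genes, so that 3 counts corresponded to 0.0681 to 0.0868 CPM (counts scaled to library size, with TMM scaling). Counts differed by 101 times the sampling variance within the bleomycin pair and by 23.4 times within the control pair. The heart muscle marker list summed to 205.5 CPM in control replicate 1 and 42.1 to 130.2 CPM in the other libraries. Lung markers were present as labelled, with Sftpc, the surfactant protein of alveolar type 2 cells, for example between 6822 and 15435 CPM. Changes are treated over control, with their standard error (SE). The test was the quasi-likelihood F test of edgeR, its p-values adjusted after Benjamini and Hochberg over 15709 tested genes, of which 9.26% were called higher and 7.44% lower at an adjusted p under 0.05.

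**Figure D1:**
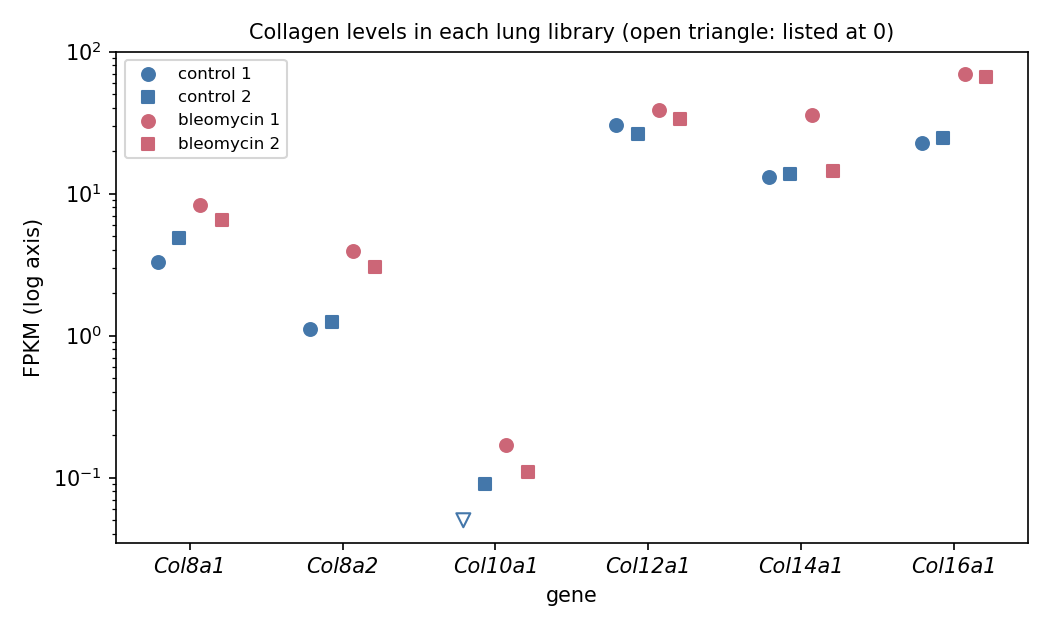
FPKM (fragments scaled to transcript length and library size, log axis) of the 6 collagen genes in each library, with circles for replicate 1 and squares for replicate 2 of each group; the open triangle marks Col10a1 in control replicate 1, listed at 0 and drawn at the foot of the axis. The 2 treated libraries lie above both controls for each gene, with the widest gap between treated libraries for Col14a1, at 36.01 and 14.48 FPKM.

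Collagen VIII is built from the products of Col8a1 and Col8a2. Col8a2 (ENSRNOG00000010841) was at 1.11 and 1.24 FPKM in control replicates 1 and 2 and at 3.93 and 3.02 FPKM in bleomycin replicates 1 and 2. Both treated libraries were well above both controls, by 3.33-fold and 2.59-fold over the control mean on the CPM scale. In CPM the gene rose from 4.92 ± 0.37 to 14.6 ± 2.6 (SD, n = 2 per group), a log2 change of 1.56 ± 0.20 (edgeR adjusted p = 0.0167). The change was larger than the spread between replicates, and 94.7% of tested genes had a smaller fitted log2 change.

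Col8a1 (ENSRNOG00000039668) was the more abundant collagen VIII gene per length, at 3.30 and 4.87 FPKM in control replicates 1 and 2 and 8.33 and 6.52 FPKM in bleomycin replicates 1 and 2. The groups did not overlap, but the controls differed from each other by 0.551 on the log2 CPM scale, replicate 1 being the lower. Its fitted log2 change of 0.86 ± 0.23 (1.81-fold) did not pass by edgeR (adjusted p = 0.0623). DESeq2 called it, with an adjusted p of 0.00811 in a test that called 13.6% of all genes higher. By edgeR it also passed without bleomycin replicate 2 (adjusted p = 0.0457, with 16% of genes called higher), and its log2 change was 0.60 without control replicate 1.

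The ratio of Col8a1 to Col8a2 in FPKM was 2.97 and 3.93 in the controls and 2.12 and 2.16 in the treated lungs. It was thus lower in both treated lungs and almost equal between them. The group difference was -0.68 on the log2 scale, and its two-sided exact permutation p was 0.33, which is the smallest that 2 libraries against 2 allow. That p is the same for each ratio tested here, also after Benjamini-Hochberg adjustment.

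Col10a1 (ENSRNOG00000051399), the collagen X gene, had 0 and 8 counts in control replicates 1 and 2 and 14 and 10 counts in bleomycin replicates 1 and 2. These correspond to 0 and 0.183 CPM in the controls, where a count of 0 allows up to 0.0868 CPM in replicate 1, and to 0.355 and 0.227 CPM in the treated lungs. Every library lay low, at no more than 0.17 FPKM. The gene did not reach the minimum for testing. Summed over each group, 24 treated against 8 control counts give a ratio of 2.81 with an exact 95% interval of 1.22 to 7.23, which covers counting error only and leaves out the variation between rats. Tested without a filter on low counts, its edgeR adjusted p was 0.497. In RefSeq the span of the gene overlaps that of Nt5dc1, which had 19.7 to 24.1 CPM over the 4 libraries. Whether their exons overlap was not checked. Without strand, reads from shared exons could not be told apart, so the few Col10a1 counts are uncertain to that extent.

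Genes of hypertrophic cartilage and bone, the setting in which collagen X is best known, went with neither direction as a list. Of 11 such genes 7 were tested, 2 rose and none fell by edgeR, with 1 lower at an unadjusted p under 0.05 and 1 lower by DESeq2, and the median log2 change was -0.04 against 0.01 over all tested genes. Over those, edgeR called 9.26% higher and 7.44% lower, and DESeq2 called 13.6% higher. Spp1, the secreted phosphoprotein osteopontin, which macrophages also make, rose by 5.34 ± 0.38 on the log2 scale (edgeR adjusted p = 0.00992). Pth1r, the receptor of parathyroid hormone, rose 1.86-fold (edgeR adjusted p = 0.0294). Among the untested genes of the list, named after their values were seen, Sp7, the osteoblast transcription factor, had 0 counts in every library. Mmp13, a collagenase gene of late cartilage, had 0 counts in both controls and 16 and 3 in the treated lungs, and Ibsp, a bone matrix sialoprotein gene, had 0 in both controls and 66 and 8 in the treated lungs. The list of 10 cartilage markers had 4 tested and summed to 7.73 and 11.2 CPM in the controls and 8.03 and 3.88 CPM in the treated lungs; edgeR called none, 1 member was higher at an unadjusted p under 0.05, and DESeq2 called 1 higher. Col2a1, the defining collagen of cartilage and likewise named after its values were seen, was at 0 in control replicate 1 and bleomycin replicate 2 and at 0.137 and 0.76 CPM in the other libraries.

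Among the fibril-associated collagens, Col16a1 (ENSRNOG00000031475) separated the groups most clearly. Collagen XVI is deposited near fibrils and microfibrils of connective tissue. The gene was at 22.59 and 24.48 FPKM in control replicates 1 and 2 and at 69.72 and 66.20 FPKM in bleomycin replicates 1 and 2. The treated libraries differed by only 0.054 on the log2 CPM scale, while both were 2.83-fold to 2.94-fold over the control mean. In CPM the gene rose from 123.4 ± 6.4 to 355.9 ± 9.3 (SD, n = 2 per group), a log2 change of 1.53 ± 0.11 (edgeR adjusted p = 0.00961). A long noncoding gene, LOC120102987, overlaps Col16a1 in RefSeq, so its reads could have been counted with those of Col16a1. Whether the annotation used for the counts holds this gene was not checked.

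Without control replicate 1 or control replicate 2, when the lone control is assumed to vary like the bleomycin pair, neither Col8a2 nor Col16a1 was called. Adjusted p by edgeR was then 0.114 and 0.0968 for Col8a2, and 0.0796 and 0.0701 for Col16a1, in tests that called 0.0807% and 0.137% of all genes higher. The fitted log2 change stayed between 1.37 and 1.72 for Col8a2 and between 1.47 and 1.58 for Col16a1 whichever of the 4 libraries was left out.

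Col12a1 (ENSRNOG00000058470) encodes collagen XII, a long protein that coats collagen I fibrils in tendon, skin and other load-bearing tissue. It was at 30.42 and 26.47 FPKM in control replicates 1 and 2 and at 38.63 and 33.60 FPKM in bleomycin replicates 1 and 2. The treated libraries were the higher ones, but the gap between the groups was smaller than the difference within either pair. In CPM it was at 301.8 ± 31.0 and 382.3 ± 33.6 (SD, n = 2 per group), a log2 change of 0.34 ± 0.13 (edgeR adjusted p = 0.137; DESeq2 adjusted p = 0.1). Of tested genes, 74.4% had a smaller log2 change.

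Col14a1 (ENSRNOG00000026415) encodes collagen XIV, which limits fibril diameter in mice and is used there as a marker of lung matrix fibroblasts. It was at 13.12 and 13.83 FPKM in control replicates 1 and 2, at 36.01 FPKM in bleomycin replicate 1 and at 14.48 FPKM in bleomycin replicate 2. Thus 1 treated lung stood high and the other was close to the controls, at 1.08-fold of their mean CPM against 2.65-fold. The fitted log2 change of 0.90 ± 0.41 did not pass (edgeR adjusted p = 0.184). It was 0.11 without bleomycin replicate 1 (adjusted p = 0.438) and 1.39 without bleomycin replicate 2 (adjusted p = 0.0029), so bleomycin replicate 1 decides this value. A pseudogene, Eif1-ps1, overlaps the span of Col14a1 in RefSeq.

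The summed CPM of the smooth muscle and mesothelial marker lists was also uneven between the treated lungs, as it was between the controls. The adventitial fibroblast sum was nearly equal between the treated lungs, but its members went both ways. Mfap5 of that list was at 60.3 CPM in bleomycin replicate 1 and 32.7 CPM in replicate 2, while Dpp4 was lower in replicate 1. The 10 smooth muscle markers summed to 1411 and 1957 CPM in control replicates 1 and 2 and to 3120 and 1989 CPM in bleomycin replicates 1 and 2, with 2 of 10 called higher. The 7 mesothelial markers summed to 145.2 and 257.5 CPM in the controls and to 536.1 and 310.8 CPM in the treated lungs, with 1 of 6 tested called higher; Calb2 was at or near 0 throughout. The 9 adventitial fibroblast markers summed to 891.5 and 802.1 CPM in the controls and 869.7 and 896.7 CPM in the treated lungs, with 2 of 9 called higher. In both treated lungs 6 of 9 were above both controls, as was so for 35.1% of all tested genes. Dpp4, a member of that list named after its values were seen, was at 221.4 and 221.7 CPM in the controls and 65.5 and 123.7 CPM in the treated lungs. At an unadjusted p under 0.05, 4 smooth muscle, 3 mesothelial and 6 adventitial markers were higher, and DESeq2 called 4, 2 and 6 higher. Over all tested genes DESeq2 called 13.6% higher and edgeR 9.26%. EdgeR called no gene of these lists lower, while 1 adventitial marker was lower at an unadjusted p under 0.05 and by DESeq2. Bleomycin replicate 1 was thus the highest library for smooth muscle, mesothelial and Col14a1 transcripts. It was also the highest for the summed FPKM of the fibrillar collagen genes, at 3146 against 1596 in bleomycin replicate 2. For the endothelial and lung epithelial marker sums it was the lowest, at 1493 and 11796 CPM, against 2103 and 20652 CPM in bleomycin replicate 2. The part of any cell type in the Col14a1 value was not tested. In whole lung, more cells of a type and more RNA per cell cannot be told apart.

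**Figure D2:**
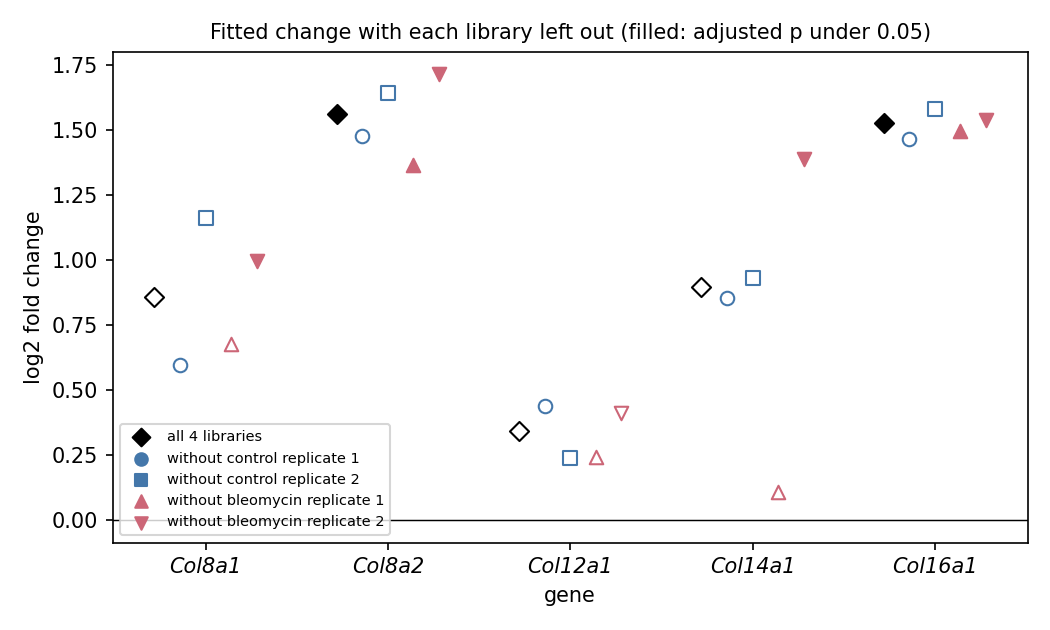
Fitted log2 fold change of the 5 tested genes with all 4 libraries (diamonds) and with each library left out, filled where the edgeR adjusted p is under 0.05. The values for Col16a1 lie together between 1.47 and 1.58, while those of Col14a1 spread from 0.11 to 1.39 with the bleomycin library that is left out.

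Of the group as a whole, 2 of the 5 tested genes were called higher and none lower by edgeR, where 9.26% of all tested genes were called higher. DESeq2 called 3 of the 5 higher and none lower, where it called 13.6% of all tested genes higher. At an unadjusted p under 0.05, 4 of the 5 were higher and none lower. The share of all tested genes at an unadjusted p is not given here, so such counts, also those of the lists, have no background beside them. For all 5, both treated libraries lay above both controls, as was so for 35.1% of all tested genes. The median log2 change of the 5 was 0.90, against 0.01 over all tested genes.

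The order of levels per length changed at the top. In both controls Col12a1 led in FPKM, followed by Col16a1, Col14a1, Col8a1, Col8a2 and Col10a1, and neighbours in that order did not overlap. In both treated lungs Col16a1 led, at 44.5% and 53.4% of the FPKM summed over the 6 genes, against 32.0% and 34.5% in the controls. Col12a1 accounted for 43.1% and 37.3% in the controls and 24.6% and 27.1% in the treated lungs. Col12a1 and Col14a1 overlapped in level in the treated group, and the other neighbours did not. The ratio of Col16a1 to Col12a1, chosen after its values were seen and therefore not tested, was 0.743 and 0.925 in the controls and 1.81 and 1.97 in the treated lungs.

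The fibril-associated collagens were set beside Col1a1, which encodes the main chain of collagen I. The ratios depend on this choice, since Col1a1 rose by 3.12 on the log2 scale. Col3a1, at a higher FPKM than Col1a1 in every library, rose by 1.71, against 1.53 for Col16a1. Ratios to Col3a1 were not computed. In bleomycin replicates 1 and 2, Col3a1 was 4.145-fold and 2.402-fold over its control mean in CPM, against 2.937-fold and 2.83-fold for Col16a1. Col16a1 thus rose less than Col3a1 in replicate 1 and more in replicate 2. In FPKM, Col12a1 was 41.3% and 39.5% of Col1a1 in the controls and 4.32% and 10.01% in the treated lungs. Col14a1 was 17.8% and 20.6% of Col1a1 in the controls and 4.03% and 4.32% in the treated lungs, so the treated pair, far apart in Col14a1 itself, was close in this ratio. Col16a1 was 30.6% and 36.5% of Col1a1 in the controls and 7.80% and 19.7% in the treated lungs. In each of these ratios to Col1a1 both treated lungs were below both controls, although the measured FPKM of each of these genes was higher there.

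The ratio to Col1a1, averaged on the log2 scale, was lower in the treated group by 6.13-fold for Col12a1, 4.59-fold for Col14a1 and 2.70-fold for Col16a1 (two-sided exact permutation p = 0.33 for each, the smallest possible with n = 2 per group). Without bleomycin replicate 1 the difference was -2.01 on the log2 scale for Col12a1 and -0.76 for Col16a1, against -2.62 and -1.43 with all 4 libraries. Without bleomycin replicate 2 it was -3.22 for Col12a1 and -2.10 for Col16a1.

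**Figure D3:**
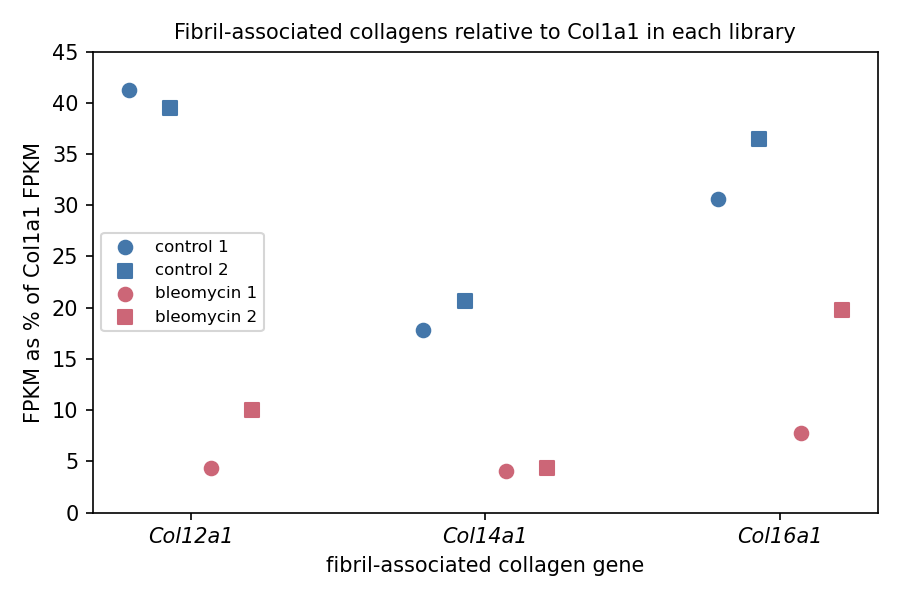
FPKM of Col12a1, Col14a1 and Col16a1 as a percentage of Col1a1 FPKM in each library (y axis from 0; circles, replicate 1; squares, replicate 2). The controls sit between 17.8% and 41.3% and the treated lungs between 4.03% and 19.7%, below both controls for each gene.

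Fibrillar collagens were the list to compare. Of 10 tested, 5 rose and 1 fell, with a median log2 change of 1.86. The shares called over all tested genes were 9.26% higher and 7.44% lower. Col1a1 rose by 3.12 ± 0.49 on the log2 scale (edgeR adjusted p = 0.0224), or by 2.26 without bleomycin replicate 1, and Col1a2, the other chain of collagen I, rose by 2.26 ± 0.35 (edgeR adjusted p = 0.0224). Col3a1, the collagen III gene and the one with the highest mean CPM of those called, rose 3.27-fold. The gene that fell was Col11a2, a chain of collagen XI best known from cartilage, by 1.88 on the log2 scale; it was named after its values were seen. The summed FPKM of the 6 network-forming and fibril-associated genes was 70.5 and 71.0 in the controls and 156.8 and 123.9 in the treated lungs. For the 11 fibrillar genes these sums were 597.5 and 625.1 in the controls and 3146 and 1596 in the treated lungs.

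**Figure D4:**
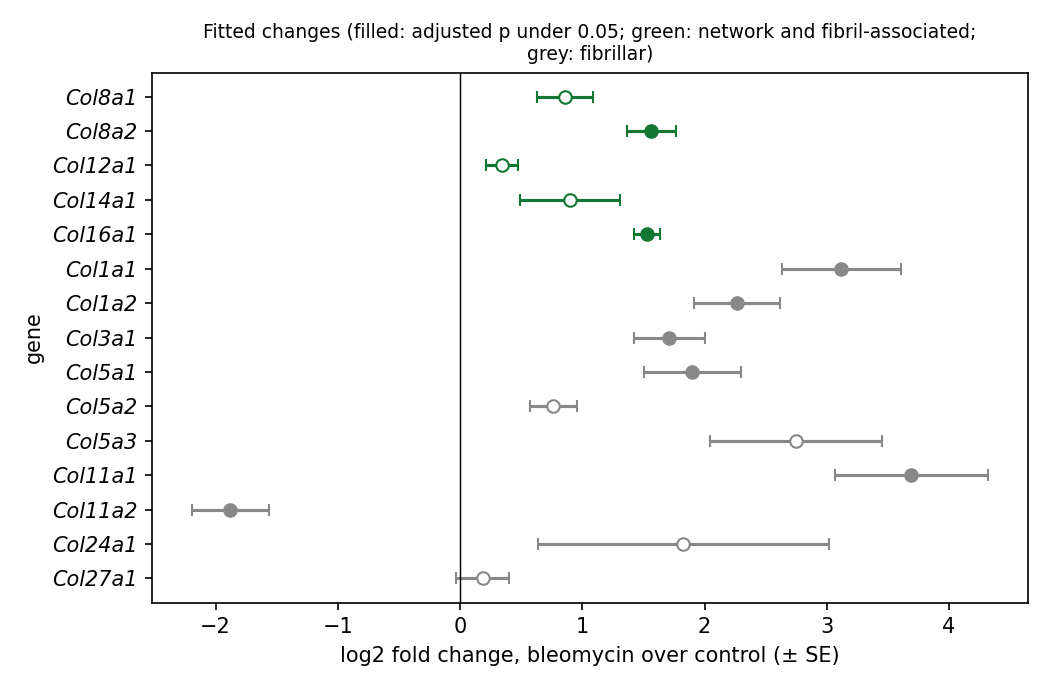
Fitted log2 fold change, bleomycin over control, with SE bars, for the 5 tested network-forming and fibril-associated genes (green) and the 10 tested fibrillar genes (grey), filled where the edgeR adjusted p is under 0.05. The green values lie between 0.34 and 1.56 and the grey ones between -1.88 and 3.69.

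The remaining fibril-associated collagens, IX, XIX, XX and XXII, were at no more than 2.03 FPKM in any library. The highest of them in the controls was Col20a1, at 2.03 and 1.56 FPKM, above Col8a2 at 1.11 and 1.24 FPKM there. Of 5 tested, none was called by edgeR, 1 was lower at an unadjusted p under 0.05, and DESeq2 called 1 lower; the median log2 change was -1.09. Col20a1 was at 8.83 and 6.76 CPM in control replicates 1 and 2 and at 2.96 and 4.36 CPM in bleomycin replicates 1 and 2 (edgeR adjusted p = 0.0584). Without bleomycin replicate 2 it was called lower, at a log2 change of -1.41 (edgeR adjusted p = 0.0248). Col19a1 stayed below 0.39 CPM in every library, with an edgeR adjusted p of 0.183. Col21a1 was not analysed here.

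Proteins that bind the fibril surface beside collagens XII and XIV were tested as a list of 8, of which 7 were measured; Tnxb was not analysed here. Of these 7, 4 rose and none fell by edgeR, also none at an unadjusted p under 0.05 or by DESeq2, and the median log2 change was 2.004. EdgeR called 9.26% of all tested genes higher. Bgn, the proteoglycan biglycan, rose from 487.0 ± 3.8 to 1523 ± 403 CPM (edgeR adjusted p = 0.0168), and Aspn, the related protein asporin, rose 4.01-fold (edgeR adjusted p = 0.0199). Dcn, decorin, a binding partner of collagens XII and XIV that was named after its values were seen, was at 109.1 and 94.1 CPM in the controls and 157.4 and 91.8 CPM in the treated lungs (edgeR adjusted p = 0.471). Its log2 change was -0.15 without bleomycin replicate 1 and 0.62 without bleomycin replicate 2, where it was called higher (edgeR adjusted p = 0.0224).

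Collagen receptors went both ways. Of 9 tested, 3 rose and 2 fell, with a median log2 change of 0.32. Of all tested genes, 9.26% were called higher and 7.44% lower. Some of these calls rest on few counts. Itga10, which rose, had 0 counts in both controls and 27 and 13 in the treated lungs. Gp6, which fell, had 59 and 116 counts in the controls and 7 and 16 in the treated lungs. Both were named after their values were seen. Itga1, an integrin chain that binds network collagens, fell by 0.80 on the log2 scale, from 150.9 and 134.4 CPM in the controls to 77.1 and 86.5 CPM in the treated lungs (edgeR adjusted p = 0.0202). Itga2, its relative with a preference for fibrillar collagen, rose 2.23-fold (edgeR adjusted p = 0.0242). Ddr2, the receptor kinase for collagens I and X, was named after its values were seen and showed a change of 0.18 ± 0.11 in log2 (edgeR adjusted p = 0.301).

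Collagens VIII and X share their C-terminal domain with the complement protein C1q and its relatives. Of 13 such genes 7 rose and none fell by edgeR, with 1 lower at an unadjusted p under 0.05 and none lower by DESeq2, and the median log2 change was 0.95. Among all tested genes, edgeR called 9.26% higher and 7.44% lower. C1qa and C1qb, complement chains made by macrophages, rose 5.07-fold and 4.56-fold (edgeR adjusted p = 0.00961 and 0.0101). Emilin1, an elastic fibre protein with the same domain and the highest mean CPM of the genes called, rose 4.27-fold (edgeR adjusted p = 0.0309), or 2.79-fold without bleomycin replicate 1, where it was not called (edgeR adjusted p = 0.0556). Over all the pathway lists described here, 21 genes were called higher and 3 lower by edgeR, and none was without control replicate 1 or without control replicate 2, where 26 and 24 were higher and 3 and 6 lower at an unadjusted p under 0.05.

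Genes with the most similar profile were found by Euclidean distance between log2 CPM profiles over the 4 libraries, each centred on its own mean, among 12374 genes. Nearest to Col16a1 were Tmem86a, Rab32 and Hpgds, at distances of 0.0797, 0.115 and 0.118. Nearest to Col8a2 were Gas7, Fxyd2 and Nnmt, at 0.0989 to 0.108, and nearest to Col8a1 were Dhcr7, Cd8b and Vsig2, at 0.0846 to 0.0918. Plek2, Tmprss4 and Cldn23 lay nearest to Col14a1, at 0.0809 to 0.164, and Dgcr6, Ppcs and Prdx3 to Col12a1, at 0.0332 to 0.0469. Genes within 0.5 numbered 143 for Col14a1, 223 for Col16a1, 302 for Col8a2, 779 for Col8a1 and 5533 for Col12a1. With 4 libraries, each tested member thus shared its profile to that degree with at least 143 genes.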

How the data were processed

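The tools listed in the submitters' processing notes are HISAT2, StringTie 1.3.1, fastp 0.18.0, CASAVA 1.8 and DESeq2, with build Rnor_6.0 and no settings. Per the labels' protocols, poly(A) RNA was fragmented and copied with random primers, with no strand-marking step described. The authors deposited raw counts per gene and length-scaled FPKM values. Counts grow with transcript length, so levels were compared between genes in FPKM only.

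Counts were tested with edgeR 4.0.16 in R 4.3.3 (filterByExpr with a minimum count of 10, TMM, robust quasi-likelihood F test, group as the only term) over 15709 genes, with a threshold of 0.05 on the adjusted p. The fit has 2 residual degrees of freedom. The SE is the log2 change divided by the square root of F. Genes with no control count entered medians at a bound against 3 counts over both controls. Alternatives were other scalings, no filter, DESeq2 1.42.0, limma 3.58.1 on log2(FPKM + 0.1) and log2(FPKM + 1), a replicate block and leaving out each library.

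The members and lists were chosen with earlier results of these data known. Genes named were the 6 members, the 2 with the smallest p in each pathway list, the called gene with the highest mean CPM in a list with 3 or more calls, Col1a1, Col3a1 and the 3 nearest profiles per tested member (mean log2 CPM of at least 1); marker genes and others outside this rule were chosen after their values were seen. Marker lists were smooth muscle, mesothelium, adventitial and activated fibroblast, endothelium, cartilage, heart muscle and lung epithelium. No library was a copy of another.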

Additional observations from a re-analysis of the deposited data

How the results depend on the processing

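Of 55 fitted changes of the 5 tested genes under 11 alternatives, all 55 were above 0 and 48 kept their side of the threshold. Beside Col8a1 by DESeq2 (0.85, called), the rest came from leaving out a library. The log2 change then ranged from 0.60 to 1.16 for Col8a1, 1.37 to 1.72 for Col8a2, 0.24 to 0.44 for Col12a1, 0.11 to 1.39 for Col14a1 and 1.47 to 1.58 for Col16a1. The number of the 5 called higher ranged from 0 to 4. It was 0 without either control, with 3 and 4 higher at an unadjusted p under 0.05. Over all genes, leaving out a library gave 13 to 2569 higher and 8 to 2573 lower calls, against 1455 and 1169, and the pathway lists together gave 0 to 28 higher and 0 to 6 lower, against 21 and 3. By DESeq2 1887 genes and 5 pathway genes were lower, and with a pseudocount of 1 on FPKM 14 pathway genes were higher. The causes were not tested. None of 30 ratio values under alternatives reversed.

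The replicate block left 2 of the 5 called, at 1.55 for Col8a2 and 1.53 for Col16a1, with 1225 higher and 1026 lower genes. Same-numbered deviations had a correlation of 0.000214, and the labels tie no number to a shared batch. Only 2 rats per group limit every test, and Col10a1 is limited by depth: its treated minus control difference was 0.199 CPM, from 0.107 to 0.291 with a library left out.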

Other observations

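Fibroblast activation and endothelial genes, chosen as marker lists with earlier results known, gave the following values; the examples were named after their values were seen. For these lists, the edgeR shares over all tested genes were 9.26% called higher and 7.44% lower. Of 9 activated fibroblast markers 5 rose and none fell by edgeR, also none at an unadjusted p under 0.05 or by DESeq2, with a median log2 change of 3.66. Grem1, an antagonist of bone morphogenetic proteins, was at 0.232 and 0.275 CPM in the controls and 6.18 and 5.42 CPM in the treated lungs. Cthrc1, a secreted protein of scar fibroblasts, was at 1.65 and 2.43 CPM against 49.4 and 13.6 CPM in bleomycin replicates 1 and 2, a log2 change of 3.94 that was 2.73 without bleomycin replicate 1 and 4.57 without bleomycin replicate 2. Postn, periostin, on the same list, overlapped between groups at 494.1 and 503.2 CPM in the controls and 433.4 and 598.9 CPM in the treated lungs (edgeR adjusted p = 0.866). Of 6 tested endothelial markers 4 fell and none rose by edgeR, also none at an unadjusted p under 0.05 or by DESeq2, with a median log2 change of -1.01; Tek, the angiopoietin receptor, fell by 1.89 on the log2 scale. Of 4 lung epithelial markers 2 fell and none rose by edgeR, also none at an unadjusted p under 0.05 or by DESeq2, and of 7 tested heart muscle markers none was called by edgeR or DESeq2 or reached an unadjusted p under 0.05.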
